A study of Arabidopsis thaliana with 15 samples.

Results

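The mitochondrial genome loci of Arabidopsis thaliana were followed on 15 Affymetrix arrays from germinated seeds incubated in abscisic acid (ABA). They were the loci whose probe set name starts with ATMG, and the rule went by name. Each of the 129 such loci had 1 probe set. The pairs ATMG00100 and ATMG00700, and ATMG00170 and ATMG00620, had identical values on every array, so each pair was counted once under its lower number, which left 127 members of the 27981 loci measured.

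The seeds were of the ecotype Col-0, and no other genotype is given in the labels. They were stratified at 4 °C for 72 h, germinated in constant white light at 22 °C and picked when the radicle protruded. They were then held in 10 µM ABA, in the dark and at 20 °C, for 0, 2, 12, 24 or 72 h. There were 3 arrays per time, each from a separate pool of seeds harvested from at least 2 plants. The series concerns the return of desiccation tolerance in ABA. Samples incubated without ABA were not analysed here, so in every difference from 0 h the hormone, the elapsed time, the darkness and the change of temperature cannot be told apart. RNA came from whole seeds, so fewer mitochondria or cells and less RNA in each cell cannot be told apart either.

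Plant mitochondria keep a small genome of their own. It encodes core subunits of the respiratory complexes I, III, IV and V, proteins that mature cytochrome c, some ribosomal proteins, the ribosomal RNAs and part of the tRNAs, and it holds many open reading frames of unknown function. The remaining respiratory subunits, the RNA polymerases and the proteins that splice, edit and trim mitochondrial transcripts are encoded in the nucleus and imported. In plant mitochondria much of the genome is transcribed, and transcript levels are known to depend largely on processing and decay of the RNA. In dry and germinating seeds, simple mitochondria build up into active ones as respiration resumes, and ABA is the hormone that holds seeds in the dormant and desiccation-tolerant state.

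The members were described in 3 groups. On gene lists written from general knowledge of this genome stood 38 members: 13 of complex I (NADH dehydrogenase), 1 of complex III, 3 of complex IV (cytochrome c oxidase), 5 of complex V (ATP synthase), 4 of cytochrome c maturation, 7 ribosomal proteins, 3 ribosomal RNAs and 2 for a maturase and a protein transporter. Another 9 members were tRNAs. The remaining 80, called other loci here, stood on no list and could not be named from the table used. The gene table used for names held 0 of the ATMG identifiers, so most members are given by locus and by their list.

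Gene names could be given to 15 members through the nucleus. A long copy of mitochondrial DNA is inserted in nuclear chromosome 2, and 25 members had values identical, on every array, to those of a nuclear locus there. For these 25 the signal cannot be assigned to 1 of the genomes. Whether the nuclear copy also adds to the signal of the other members was not tested. The nuclear partner named 9 members as tRNAs: ATMG00230 for serine, ATMG00250, ATMG00460 and ATMG01340 for methionine, ATMG00350 for proline, ATMG00380 for asparagine, ATMG00800 for glutamate, ATMG00930 for tryptophan and ATMG01070 for aspartate. ATMG00930 also shared its values with the plastid locus ATCG00610. For 6 more members the place of the copy against the mitochondrial chromosome in the gene table gave ccmFC (ATMG00180), nad6 (ATMG00270), nad2 (ATMG00285), atp8 (ATMG00480), ccmFN1 (ATMG00830) and rps12 (ATMG00980). All 6 stood on the list that fits that gene.

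Values are log2 expression levels, so a difference of 1 is a doubling. A locus is said to have risen or fallen where limma's moderated test between a pair of times gave a p under 0.05 once Benjamini-Hochberg adjustment had been made for all 27981 loci, and such a locus is called. Replicate 2 at 2 h stood apart: it correlated at 0.889 and 0.901 with the other 2 h arrays, against 0.986 to 0.995 between other arrays of the same time. On that array 24 members were lower and 4 higher by over 1 than the mean of its 2 partners, 22.0% of members, against 29.5% of all loci. Among them 0 stood on a list, 3 were tRNAs and 25 were other loci. All arrays share 1 estimate of the spread, so the counts of members called are also given without it for each pair of times. Seed storage and oil body markers changed with time: the mean level of 6 such genes lay between 5.32 and 5.71 on the 0 h arrays, 7.07 and 10.75 at 2 h, 8.68 and 8.89 at 12 h, 9.11 and 9.79 at 24 h and 7.8 and 8.11 at 72 h. The 10.75 was from 2 h replicate 2, where each of the 6 was at its highest among the 2 h arrays. AT1G03880, for instance, stood at 10.57 there, against 4.79 and 4.99 on the other 2 h arrays. Of these 6 genes 3 rose and 0 fell at 72 h. The mean of 3 endosperm and seed coat markers lay between 5.93 and 6.10 at 0 h, 6.67 and 8.18 at 2 h, 7.55 and 7.68 at 12 h, 7.33 and 7.45 at 24 h and 6.59 and 6.81 at 72 h, and 1 rose at 72 h. The 8.18 was also from 2 h replicate 2. The mean of 3 green tissue markers lay between 7.53 and 7.69 at 0 h, 6.87 and 7.02 at 2 h, 6.14 and 6.48 at 12 h, 7.09 and 7.15 at 24 h and 7.11 and 7.76 at 72 h. One of these, AT1G29930, fell by 2.74 at 12 h (adjusted p = 0.000583), and 0 were called at 72 h. Their part in the results below was not tested.

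After 72 h in ABA about as many mitochondrial genome loci had fallen as had not. Against 0 h, 65 of the 127 members fell and 3 rose, a share of 53.5% called, with a median difference of -0.72 on the log2 scale. Of all loci 38.5% were called, 20.2% as falls and 18.4% as rises, and their median difference was -0.02. The fall lay mostly outside the lists. Of the 38 listed members 5 fell and 1 rose, with a median difference of 0.11. Of the 9 tRNAs 7 fell and 1 rose (median -1.45), and of the 80 other loci 53 fell and 1 rose (median -0.97). Within 0.5 of their 0 h level stayed 34 of the 38 listed members and 23 of the 89 not listed. Without the 2 h array that stands apart, 76 members fell and 7 rose at 72 h, against 51.2% of all loci called. The listed members then had 6 falls and 4 rises, the tRNAs 7 and 1, and the other loci 63 and 2.

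**Figure D1:**
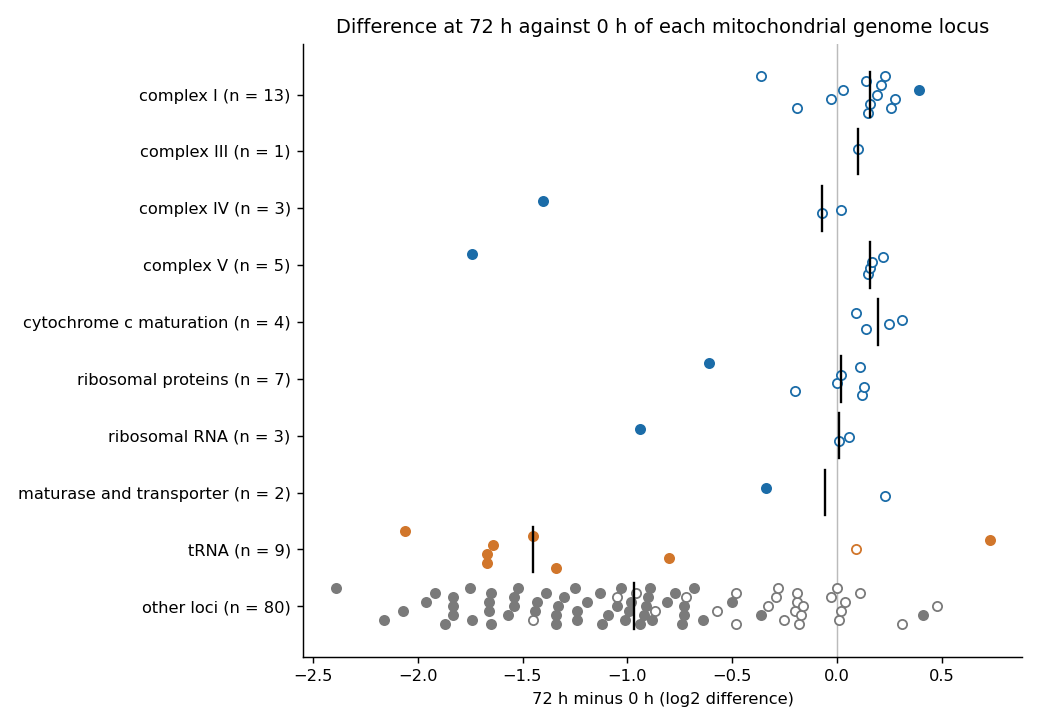
Difference in log2 level between 72 h and 0 h for each of the 127 mitochondrial genome loci, by gene list, tRNA or other. Filled points passed the adjusted p of 0.05, open points did not, and black bars are medians. Most listed loci sit close to 0, while 7 of 9 tRNAs and 53 of 80 other loci are filled points left of 0.

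The first falls were called at 12 h. At 2 h against 0 h limma called 0 members, against 15.8% of all loci, 6.95% as rises and 8.89% as falls. At an unadjusted p under 0.05 it passed 6 members, 5 upward and 1 downward, and the lowest adjusted p was 0.0587, for ATMG00880. Without 2 h replicate 2, ATMG00880 lay 0.37 above its 0 h mean (adjusted p = 0.122). At 12 h 11 members fell and 0 rose, against 25% of all loci called, 11.7% fallen and 13.3% risen. At 24 h 40 fell and 3 rose, against 36.6% called, 19.1% fallen and 17.4% risen. The median difference of the members from 0 h was -0.02 at 2 h, -0.18 at 12 h, -0.28 at 24 h and -0.72 at 72 h, while that of all loci was 0.11, -0.04, 0.00 and -0.02. Of the 40 members that fell at 24 h, 39 also fell at 72 h, as did 9 of the 11 that fell at 12 h; these comparisons share the 0 h arrays.

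Without the array that stands apart, 2 members rose at 2 h, 29 fell and 1 rose at 12 h, and 59 fell and 8 rose at 24 h. The shares of all loci called were then 19.1% at 2 h, 40.6% at 12 h and 49.1% at 24 h. The 2 members that rose at 2 h were ATMG00120 and ATMG01260, by 0.49 (adjusted p = 0.0141) and 0.44 (adjusted p = 0.0255). ATMG00120 was at 7.10, 6.00 and 6.75 on the 2 h arrays, against 6.50, 6.41 and 6.38 on the 0 h arrays, and the 6.00 is from the array that stands apart. Taking the 4 differences from 0 h together, limma's F test called 67 members, 52.8%, against 44.0% of all loci, and 101 members against 58.7% without that array.

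Each group kept its own course over the arrays. The median level of the 38 listed members averaged 10.37 ± 0.07 at 0 h, 10.33 ± 0.01 at 2 h, 10.19 ± 0.15 at 12 h, 10.34 ± 0.03 at 24 h and 10.36 ± 0.06 at 72 h (SD, n = 3 at each time). Its lowest time was 12 h, and 26 of the 38 listed members had their lowest mean there. The tRNAs stood at 7.72 ± 0.14 at 0 h, 7.91 ± 0.13 at 2 h, 7.23 ± 0.19 at 12 h, 6.58 ± 0.14 at 24 h and 6.92 ± 0.08 at 72 h, lowest at 24 h. Locus by locus the order was not the same. The median difference of the 9 tRNAs from 0 h was -1.2 at 24 h and -1.45 at 72 h. Of the 9, 5 had a lower mean at 72 h than at 24 h. For the 80 other loci the median was 7.99 ± 0.04 at 0 h, 7.95 ± 0.40 at 2 h, 7.83 ± 0.13 at 12 h, 7.47 ± 0.19 at 24 h and 6.76 ± 0.06 at 72 h. Their lowest time was 72 h, as it was for the mean of 69 of the 89 members not listed.

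**Figure D2:**
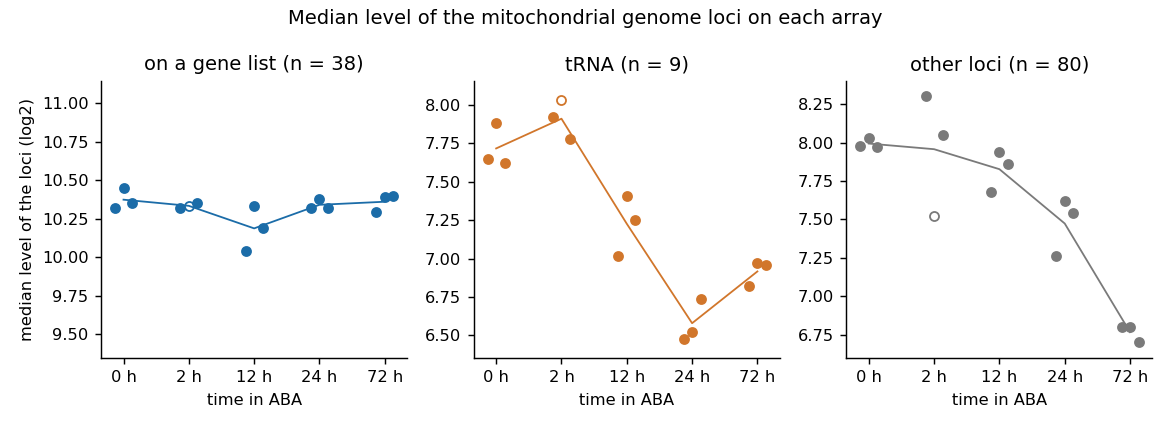
Median log2 level on each array of the 38 listed loci, the 9 tRNAs and the 80 other loci, by time in ABA. Points are arrays, the open point is 2 h replicate 2, and lines join the time means. The listed loci stay near 10.4, the tRNAs drop by 24 h, and the other loci reach 6.76 at 72 h. Each panel spans the same range of log2 units.

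Complex I, which passes electrons from NADH into the respiratory chain, had 13 members on its list, of which 0 fell and 1 rose at 72 h (median 0.16). ATMG00513 was the one that rose. It stood at 10.03, 10.27 and 10.20 at 72 h, against 9.60, 9.94 and 9.78 at 0 h. The 72 h arrays all lay above the 0 h arrays, and the arrays of these times were likewise without overlap for 58.1% of all loci. The difference was 0.39 (SE 0.14, adjusted p = 0.0327). Leaving out replicate 1 or 3 at 0 h, or replicate 2 or 3 at 72 h, ended this call, with adjusted p between 0.0737 and 0.148. The other 12 differed from 0 h by -0.36 to 0.28 at 72 h, and none of the 13 was called at 12 h or 24 h. nad6 (ATMG00270) differed by 0.28 (SE 0.17, adjusted p = 0.232) and nad2 (ATMG00285) by 0.19 (SE 0.11, adjusted p = 0.231). The list gives some of the 13 loci as parts of the same gene, so they are not 13 separate genes. At 72 h ATMG00060, listed with ATMG00513 under nad5, differed by 0.03, and ATMG01320, listed with ATMG00285 under nad2, by -0.03. ATMG00516, ATMG01120 and ATMG01275, listed under nad1, differed by -0.36, 0.16 and 0.23.

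Complex III had 1 member, ATMG00220, at 9.21, 9.62 and 9.56 at 72 h, against 8.98, 9.67 and 9.45 at 0 h. The arrays of both times overlapped, and the difference was 0.10 (SE 0.20, adjusted p = 0.798).

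Complex IV, the terminal oxidase of the chain, had 3 members that took different courses. ATMG00730 was at 9.34, 9.60 and 9.58 at 0 h, 9.39, 9.37 and 9.46 at 2 h, 8.78, 9.24 and 9.15 at 12 h, 8.86, 8.62 and 8.59 at 24 h and 7.95, 8.08 and 8.27 at 72 h. All arrays from 12 h on lay below those of 0 h. It fell by 0.45 at 12 h (SE 0.15, adjusted p = 0.0411), a call that 7 of the 15 fits without 1 array lost (0 h replicates 2 and 3, 12 h replicates 1 and 3, 24 h replicates 2 and 3 and 72 h replicate 2, adjusted p 0.0537 to 0.198). It fell by 0.82 at 24 h (SE 0.15, adjusted p = 0.000632) and by 1.40 at 72 h (SE 0.15, adjusted p = 5.5e-06). ATMG01360 was not called at any time. It was at 11.59, 11.70 and 11.65 at 72 h, against 11.64, 11.70 and 11.56 at 0 h, a difference of 0.02 (SE 0.11, adjusted p = 0.948). ATMG00160 fell at 12 h, by 0.47 (SE 0.15, adjusted p = 0.0296), and lay within 0.07 of its 0 h mean at 72 h (adjusted p = 0.798). Its 12 h call was lost, at adjusted p 0.0556 to 0.145, when any of 5 arrays was left out: 0 h replicates 1 and 2 and each 12 h array.

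Complex V, the ATP synthase, had 5 members, of which 1 fell at 72 h (list median 0.16). ATMG01080 was at 10.50, 10.40 and 10.39 at 0 h, 10.43, 9.70 and 10.47 at 2 h, 10.02, 10.32 and 9.87 at 12 h, 9.47, 9.26 and 9.12 at 24 h and 8.48, 8.80 and 8.78 at 72 h. Only the 2 h array that stands apart was low at 2 h, and all 24 h and 72 h arrays lay below 0 h. It fell by 1.14 at 24 h (SE 0.20, adjusted p = 0.000421) and by 1.74 at 72 h (SE 0.20, adjusted p = 1.04e-05), the largest fall among the 38 listed members. The other 4 differed from 0 h by 0.15 to 0.22 at 72 h, none of them called. One of these, atp8 (ATMG00480), stood at 11.17, 11.23 and 11.15 at 72 h, against 10.99, 11.07 and 10.98 at 0 h. Its 72 h arrays lay above all 0 h arrays, yet the difference of 0.17 was not called (SE 0.11, adjusted p = 0.282).

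The 4 members for cytochrome c maturation, which attach heme to the electron carrier, differed by 0.09 to 0.31 at 72 h and none was called there. At 24 h ccmFN1 (ATMG00830) rose by 0.33 (SE 0.12, adjusted p = 0.0468). It was at 10.08, 10.05 and 10.12 at 24 h, against 9.75, 9.79 and 9.70 at 0 h, without overlap. That call was lost in 11 of the 15 fits that left out 1 array, those of 0 h, 24 h and 72 h and 12 h replicates 2 and 3, at adjusted p 0.0581 to 0.128.

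Of the 7 ribosomal protein members, ATMG01270 fell at 72 h and the other 6 differed by -0.20 to 0.13 with no call. ATMG01270 was at 9.89 on each 72 h array, against 10.51, 10.50 and 10.47 at 0 h, and fell by 0.61 (SE 0.11, adjusted p = 0.000666). At 24 h it still stood at 10.42, 10.55 and 10.48, a difference of -0.01 (adjusted p = 0.959), and the step between 24 h and 72 h was -0.59 (SE 0.11, adjusted p = 0.0105). Leaving out replicate 2 or 3 of 24 h or replicate 3 of 72 h ended the call of that step, at adjusted p 0.0513 to 0.061. rps12 (ATMG00980), a protein of the small ribosomal subunit, differed by 0.13 at 72 h (SE 0.14, adjusted p = 0.547).

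The ribosomal RNAs, the most abundant stable RNAs of the organelle, were also unequal. ATMG01380 fell. It was at 10.08, 10.06 and 10.09 at 72 h, against 11.01, 10.97 and 11.07 at 0 h, a difference of -0.94 (SE 0.17, adjusted p = 0.000458), after -0.76 at 24 h (SE 0.17, adjusted p = 0.00245). ATMG01390 and ATMG00020 differed at 72 h by 0.01 (SE 0.13, adjusted p = 0.983) and 0.06 (SE 0.12, adjusted p = 0.771). ATMG01390 stood at 12.34, 12.43 and 12.37 at 72 h, against 12.29, 12.47 and 12.36 at 0 h, close to 12.77, the highest value in the table. How far the array could register a further rise at such a signal was not tested.

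On the list of the maturase, a splicing protein, and the transporter, ATMG00520 rose at 24 h by 0.33 (SE 0.11, adjusted p = 0.0354) and ATMG00570 fell by 0.35 at 24 h (SE 0.13, adjusted p = 0.0422) and by 0.34 at 72 h (SE 0.13, adjusted p = 0.047). ATMG00570 was at 9.72, 9.88 and 9.92 at 72 h, against 10.19, 10.19 and 10.15 at 0 h, without overlap. Both sizes are close to the threshold. Leaving out an array ended the 24 h call of ATMG00570 in 11 of 15 fits (every array of 0 h, 24 h and 72 h and 12 h replicates 2 and 3, adjusted p 0.0503 to 0.129) and that of ATMG00520 in 7 (each 0 h and 24 h array and 72 h replicate 3, adjusted p 0.0503 to 0.125). For ATMG00570 it ended the 72 h call in 12 of 15 fits, those of every array outside 2 h, at adjusted p 0.0533 to 0.17.

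With the 2 h array that stands apart left out, more listed members were called: 0 rose and 9 fell at 12 h, 5 rose and 7 fell at 24 h, and 4 rose and 6 fell at 72 h. More of all loci were called as well. The shares at 12 h, 24 h and 72 h were 23.7%, 31.6% and 26.3% of the listed members, against 40.6%, 49.1% and 51.2% of all loci. The 4 that rose at 72 h were ATMG00513 and ATMG00070 of the complex I list, ATMG00960 of the cytochrome c maturation list and ATMG01170 of the complex V list, by 0.22 to 0.39. ATMG00516 of the complex I list, which fell by 0.36 (adjusted p = 0.0238), was added to the 5 that fell. At 24 h 35 of the 38 lay within 0.5 of their 0 h level.

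tRNAs carry amino acids to the organelle's ribosomes, and the signal of most tRNA loci fell by 24 h. Whether mature tRNAs or longer transcripts gave this signal was not tested. At 24 h against 0 h 8 of the 9 fell, with differences of -1.54 to -0.56, and 0 rose. Among all loci 19.1% fell and 17.4% rose at 24 h. tRNA-Met (ATMG01340) was at 9.35, 9.34 and 8.96 at 0 h, 9.79, 8.49 and 9.30 at 2 h, 8.54, 9.15 and 8.67 at 12 h, 7.54, 7.77 and 7.73 at 24 h and 7.09, 7.25 and 7.12 at 72 h. Its 24 h and 72 h arrays lay below every earlier array. It fell by 1.54 at 24 h (SE 0.26, adjusted p = 0.000341) and by 2.06 at 72 h (SE 0.26, adjusted p = 2.53e-05).

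The tRNAs for serine, proline and methionine (ATMG00230, ATMG00350, ATMG00250 and ATMG00460) ended at 72 h between 1.45 and 1.67 below 0 h, with adjusted p from 2.8e-06 to 0.000351. tRNA-Pro (ATMG00350) was at 7.51, 7.51 and 7.49 at 72 h, against 9.29, 9.29 and 8.94 at 0 h. tRNA-Glu (ATMG00800) fell by 1.35 at 24 h (adjusted p = 0.000128) and stood 1.34 below 0 h at 72 h as well. The step from 12 h to 24 h carried much of this change: 6 of the 9 tRNAs fell in it and 1 rose. Among all members 18 fell and 2 rose in that step, against 3.81% of all loci fallen and 2.75% risen (6.56% called). Without the 2 h array that stands apart, 37 fell and 8 rose, against 21.3% of all loci called.

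The 24 h and 72 h arrays did not overlap, in either direction, for 7 of the 9 tRNAs and for 30.5% of all loci. For 3 of these tRNAs the 72 h arrays all lay above the 24 h arrays. tRNA-Asn (ATMG00380) stood at 10.09, 10.24 and 10.25 at 72 h, against 9.54, 9.45 and 9.61 at 24 h, and rose in that step by 0.66 (SE 0.14, adjusted p = 0.0175). It was the 1 member that rose between 24 h and 72 h, and at 72 h it lay 0.09 from its 0 h mean (adjusted p = 0.698). Leaving out replicate 2 or 3 of 24 h or of 72 h ended that call, at adjusted p 0.055 to 0.092. tRNA-Asp (ATMG01070) was 1.26 below 0 h at 24 h (adjusted p = 3.2e-05) and 0.80 below it at 72 h (adjusted p = 0.00117), and the step between those times was 0.46 (adjusted p = 0.171).

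tRNA-Trp (ATMG00930), whose values are shared with the plastid locus, ran the other way. It was at 9.48, 9.68 and 9.49 at 0 h, 9.31, 9.56 and 9.29 at 2 h, 8.77, 9.37 and 9.26 at 12 h, 9.85, 9.68 and 9.80 at 24 h and 10.05, 10.44 and 10.34 at 72 h. All 72 h arrays lay above all others. It rose by 0.73 at 72 h (SE 0.17, adjusted p = 0.00295), the largest rise of any member. Of the 132 plastid genome loci 33 rose and 13 fell at 72 h, against 18.4% of all loci risen and 20.2% fallen. The median difference of the plastid loci was 0.18. Which genome the shared signal came from cannot be told apart.

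**Figure D3:**
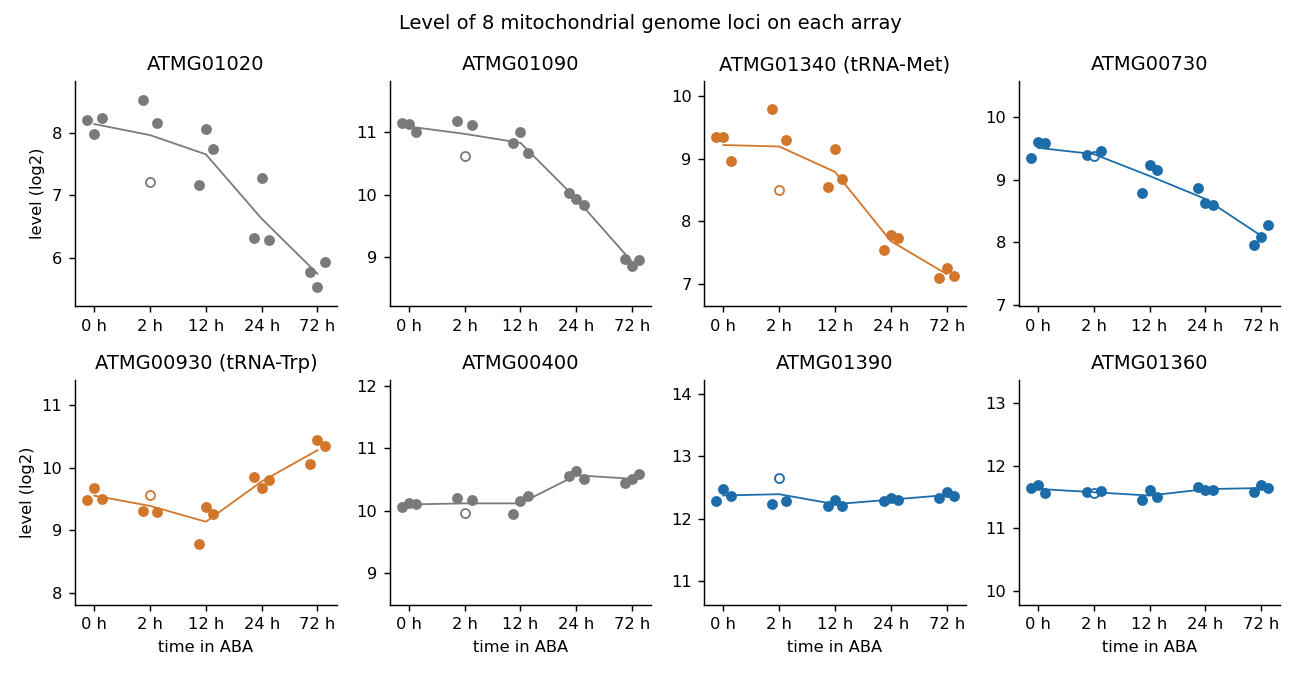
Log2 level on each array of 8 mitochondrial genome loci by time in ABA, with the open point for 2 h replicate 2, lines through the time means, and the same span of log2 units in each panel. ATMG01020, ATMG01090, tRNA-Met (ATMG01340) and ATMG00730 drop from 12 h on, tRNA-Trp (ATMG00930) and ATMG00400 end above 0 h, and ATMG01390 and ATMG01360 stay level.

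The other loci were the largest group, and 36 of the 80 fell by 1 or more at 72 h, against 2893 of all 27981 loci. ATMG01020 was at 8.20, 7.98 and 8.23 at 0 h, 8.52, 7.21 and 8.15 at 2 h, 7.16, 8.06 and 7.74 at 12 h, 6.31, 7.27 and 6.29 at 24 h and 5.77, 5.53 and 5.93 at 72 h. The 72 h arrays lay below all others, and the 12 h and 24 h arrays were spread widely. It fell by 1.51 at 24 h (SE 0.33, adjusted p = 0.00235) and by 2.39 at 72 h (SE 0.33, adjusted p = 5.43e-05), the largest fall of the 127 members.

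ATMG01090 fell in step with time after 12 h. It stood at 11.14, 11.12 and 11.00 at 0 h, 11.18, 10.62 and 11.11 at 2 h, 10.82, 11.00 and 10.66 at 12 h, 10.03, 9.93 and 9.84 at 24 h and 8.97, 8.85 and 8.95 at 72 h. It fell in both late steps, by 0.89 from 12 h (SE 0.15, adjusted p = 0.00423) and by 1.01 from 24 h (SE 0.15, adjusted p = 0.00213), to 2.16 below 0 h at 72 h (adjusted p = 1.3e-07). The other large falls at 72 h were those of ATMG00470 by 2.07, ATMG00630 by 1.96, ATMG00190 by 1.92, ATMG00550 by 1.87 and ATMG00610 by 1.83, with adjusted p from 3.05e-07 to 0.000817.

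These loci differed in when they fell. ATMG00190 and ATMG00610 were already lower at 12 h, by 0.64 (adjusted p = 0.0101) and 0.60 (adjusted p = 0.00612). ATMG00610 was at 7.35, 7.82 and 7.55 at 12 h and 6.30, 6.43 and 6.31 at 72 h, against 8.25, 8.19 and 8.09 at 0 h. Leaving out replicate 2 of 0 h or replicate 1 of 12 h ended the 12 h call of ATMG00190, at adjusted p 0.051 and 0.0578. In contrast ATMG00320 stood at 8.70, 8.75 and 8.75 at 24 h, 0.03 from its 0 h mean (adjusted p = 0.952), and at 7.80, 7.65 and 7.54 at 72 h, a step of -1.07 (SE 0.22, adjusted p = 0.0173). Leaving out replicate 2 or 3 of either time ended that call, at adjusted p 0.0688 to 0.0886. ATMG01050 likewise fell by 1.31 between 24 h and 72 h (SE 0.20, adjusted p = 0.00202), to 7.71, 7.34 and 7.60, against 8.87, 8.85 and 8.84 at 24 h. Between 24 h and 72 h 12 members fell and 1 rose, against 1.39% of all loci fallen and 1.93% risen (3.32% called), and without the 2 h array that stands apart 56 fell and 2 rose, against 12.8%. Between 2 h and 12 h 7 members fell and 0 rose, against 1.62% of all loci fallen and 3.27% risen (4.89% called). Without that array 17 fell and 0 rose, against 15.3% of all loci called.

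ATMG00400 was the 1 other locus that rose, at both late times. It was at 10.56, 10.64 and 10.50 at 24 h and 10.44, 10.51 and 10.58 at 72 h, against 10.06, 10.13 and 10.11 at 0 h, without overlap. The rises were 0.47 (SE 0.12, adjusted p = 0.00734) and 0.41 (SE 0.12, adjusted p = 0.0146). Leaving out replicate 1 of 0 h or replicate 3 of 72 h ended the call at 72 h, at adjusted p 0.0519 and 0.0591. Without the 2 h array that stands apart ATMG00280 also rose at 72 h, by 0.48 (adjusted p = 0.0097).

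Several other loci kept to the course of ATMG01020, the member with the widest range of time means. Over the 15 arrays the members most correlated with it were ATMG00820 (Pearson r = 0.984), ATMG00670 (0.965), ATMG01250 (0.96), tRNA-Met ATMG01340 (0.959) and ATMG00470 (0.956). These 15 points share the 5 times and the 2 h array that stands apart, on which ATMG01020 was the lowest of the 2 h arrays. Loci with successive numbers differed alike only weakly: the 72 h differences of the 126 successive pairs had a Spearman rho of 0.24.

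The groups also differed in signal. The level of a probe set depends on its probes, so levels of different loci are not amounts of RNA, and they are given here as signal. At 0 h the median signal was 10.39 for the listed members, 7.72 for the tRNAs and 7.99 for the other loci, against 5.23 for all loci. Above a 0 h signal of 9 stood 37 listed and 23 other loci. Of these 37 listed members 5 fell and 1 rose at 72 h, and of the 23 other loci 12 fell and 1 rose, against 49.7% fallen among all 1633 loci above that signal. Of the 57 other loci at or below it, 41 fell and 0 rose. This split was chosen after seeing the data. With the mean over all 15 arrays, which the falls themselves lower, 4 of 36 listed and 9 of 20 other loci above 9 fell, against 32.2% of all 1380 loci. The 0 h signal and the 72 h difference, which share the 0 h arrays, had a Spearman rho of 0.46 over the 127 members, -0.24 within the listed members and 0.13 within the other loci. The part of signal in the difference between the groups was not tested.

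**Figure D4:**
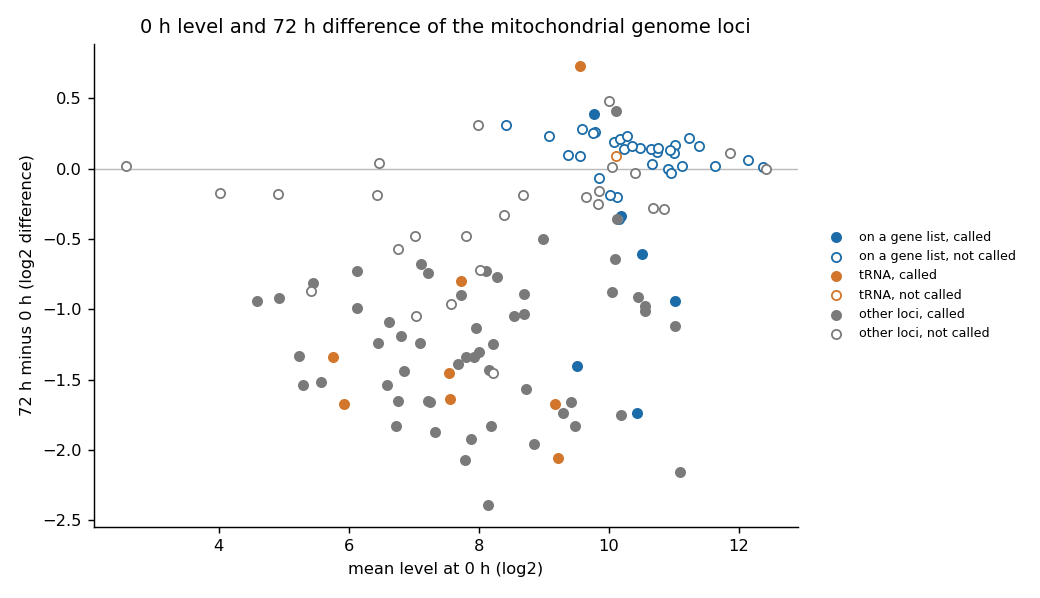
Difference at 72 h against 0 h (log2) of each of the 127 loci against its mean log2 signal at 0 h. Filled points passed the adjusted p of 0.05. Listed loci lie at 8.42 or above and mostly near a difference of 0, and other loci with falls over 1 lie on both sides of a signal of 9.

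Falls were called both among members that share values with the nuclear copy and among those that do not. Of the 25 members that share values 12 fell and 1 rose at 72 h (median -0.72), against 53 fallen and 2 risen of the 102 that do not (median -0.71). Among all loci 20.2% fell and 18.4% rose at 72 h. Of the 25, the 6 listed members had 0 calls at 72 h with differences of 0.13 to 0.28, and 5 of the 10 other loci fell, against 48 of the 70 other loci that do not share. All 9 tRNAs are among the 25. No test was made between these sets. The loci of lowest mean signal, ATMG00970 (2.61) and ATMG00910 (3.81), were not called at any time with all arrays, and ATMG00970 ranged from 2.26 to 3.08 over all arrays. Without the 2 h array that stands apart ATMG00910 fell by 0.65 at 12 h (adjusted p = 0.00871) and by 0.52 at 24 h (adjusted p = 0.0253).

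Many nuclear genes that supply the same complexes fell by 72 h. Among 51 listed nuclear genes of complexes I to V and cytochrome c, 22 fell and 5 rose at 72 h (median -0.30, 52.9% called, against 38.5% of all loci). Without the 2 h array that stands apart 27 fell and 8 rose, against 51.2% of all loci. With all arrays 43.1% of these 51 genes fell, against 20.2% of all loci. Their median signal at 0 h was 9.4, and 49.7% of the 1633 loci above a 0 h signal of 9 fell. Of the 1380 loci with a mean over 15 arrays above 9, 32.2% fell. The part of signal in these falls was not tested. Complex I had 6 falls and 1 rise among 15 nuclear genes, against 0 falls and 1 rise among its 13 mitochondrial loci. Some of those 13 loci are listed as parts of the same gene. Complex III with cytochrome c had 7 falls and 1 rise among 13 nuclear genes, complex IV 3 falls and 1 rise among 7, and complex V 2 falls among 9. These lists are not complete, and no test was made of nuclear against mitochondrial members.

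Within complex I, GAMMA CAL2, a gamma carbonic anhydrase-like subunit, stood at 8.89, 8.72 and 8.80 at 72 h, against 7.72, 7.55 and 7.44 at 0 h, and rose by 1.23 (SE 0.15, adjusted p = 1.35e-05). GAMMA CA3, a carbonic anhydrase subunit of the same domain, was at 7.14, 6.96 and 7.30 at 72 h, against 8.0, 8.11 and 8.11 at 0 h, and fell by 0.94 (SE 0.21, adjusted p = 0.00204). Of the electron carriers, CYTC-2 fell by 1.20 (adjusted p = 1.92e-05) and CYTC-1 by 0.88 (adjusted p = 0.000111) at 72 h. AT5G05370, on the complex III list, fell by 2.27 to 6.61, 6.86 and 6.77 at 72 h, against 9.04, 9.00 and 9.02 at 0 h (adjusted p = 1.11e-07). In complex IV, AT3G62400 fell by 1.24 (adjusted p = 2.85e-06), and in complex V ATP5 fell by 0.93 (adjusted p = 8.51e-05).

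**Figure D5:**
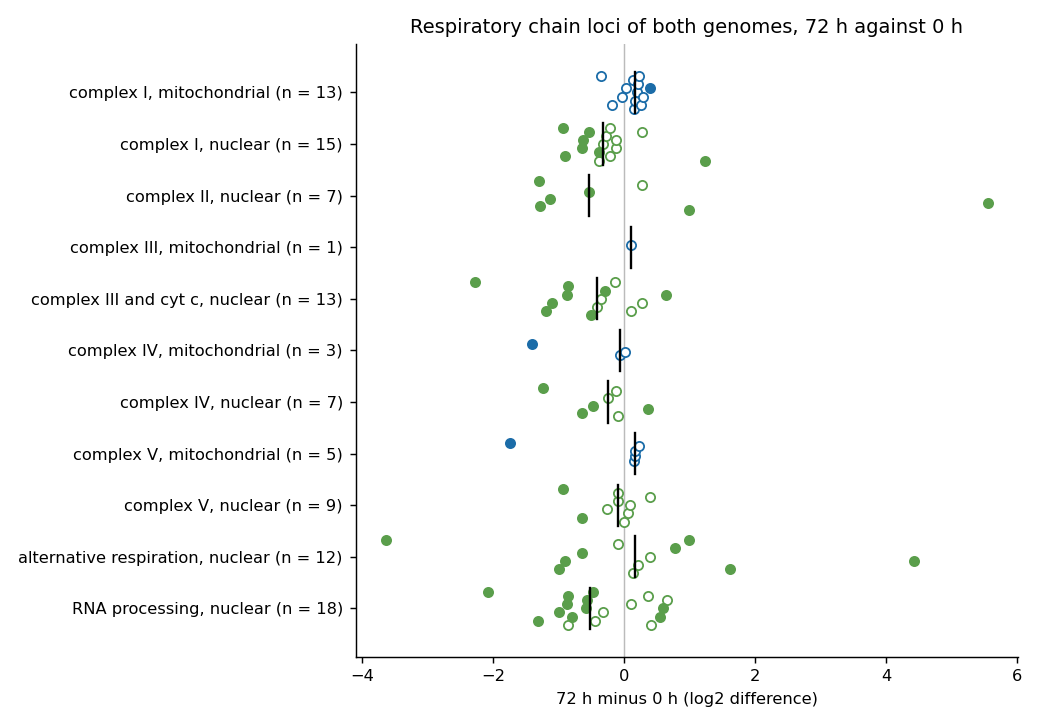
Difference at 72 h against 0 h (log2) of respiratory chain loci, with the mitochondrial list of each complex above its nuclear list, and the nuclear lists of alternative respiration and mitochondrial RNA processing. Filled points passed the adjusted p of 0.05 and black bars are medians. The nuclear medians of complexes I, II, III and IV lie between -0.53 and -0.25, and the point at 5.55 is SDH2-3.

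Complex II, succinate dehydrogenase, has its listed genes in the nucleus, where 4 fell and 2 rose of 7 at 72 h, against 20.2% of all loci fallen and 18.4% risen. SDH2-3, the form of the iron-sulfur subunit known from maturing seeds, stood at 9.37, 9.21 and 9.23 at 72 h, against 3.77, 3.68 and 3.70 at 0 h, and its rise of 5.59 was already present at 2 h (SE 0.22, adjusted p = 4.46e-10). SDH1-1, a flavoprotein subunit, fell by 1.30 at 72 h (adjusted p = 0.000589). Of 12 genes of alternative respiration, which lets electrons bypass the proton-pumping complexes, 4 rose and 4 fell at 72 h. These were 33.3% risen and 33.3% fallen, against 18.4% and 20.2% of all loci. Without the 2 h array that stands apart 5 rose and 4 fell, against 51.2% of all loci called. AOX2, an alternative oxidase known from seeds, was at 8.02, 7.96 and 7.97 at 72 h, against 3.68, 3.75 and 3.25 at 0 h, a rise of 4.43 (SE 0.23, adjusted p = 6.03e-09). NDA2, an alternative NAD(P)H dehydrogenase, rose by 1.62 (adjusted p = 1.95e-06), and NDB3, another of these enzymes, fell by 3.64 (adjusted p = 1.18e-06).

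Of 18 listed nuclear genes for processing of mitochondrial RNA, which include splicing and editing factors, 9 fell and 2 rose at 72 h (median -0.53, 61.1% called, against 38.5% of all loci). Without the 2 h array that stands apart 11 fell and 3 rose, against 51.2%. BIR6, a splicing factor for nad7, was at 4.93, 4.99 and 5.02 at 72 h, against 6.31, 6.30 and 6.28 at 0 h, and fell by 1.32 (SE 0.18, adjusted p = 5.56e-05). nMAT1, a maturase for nad introns, fell by 0.99 (adjusted p = 0.000234) and the editing factor SLO2 by 0.87 (adjusted p = 0.00182). AT5G14580, on the same list, fell by 2.08 (SE 0.50, adjusted p = 0.00384), and ABO5, a splicing factor for nad2 named for its ABA phenotype, rose by 0.54 (adjusted p = 0.0112). The 2 nuclear RNA polymerase genes on the list of those that transcribe the mitochondrial genome were not called at 72 h, with differences of 0.00 and 0.45.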

How the data were processed

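The authors deposited log2 expression values made with RMA, per the submitters' processing notes. RMA subtracts background, applies quantile normalization and fits 1 value for each probe set. Not given in the sources used here are its version, the array's design and the genome build. Labelled cDNA came from 50 ng of total RNA, per the labels' protocols. The table held 35986 probe sets. The probe set of highest mean was kept for each of 27981 loci, though each member had only 1.

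All 15 arrays entered 1 limma fit (version 3.58.1, R 4.3.3) with 1 mean per time. Tests were two-sided, and p-values were adjusted over all loci. The same steps were tested on simulated data. The number of arrays limits the precision. Replicate numbers were not used to pair the samples. In their deviations from the time means, 11 of 30 same-numbered pairs of arrays correlated above 0.1 (r from -0.174 to 0.274, median 0.0455). Whether arrays of the same number shared a batch is not given in the labels. Alternatives changed the normalization, filter, variance model, weights, arrays and threshold.

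The members and lists were chosen with earlier results of these data known, so no list was tested as a set. Named were the listed loci, the 8 largest rises and falls in each comparison among called members without overlap, the 5 highest and lowest means, up to 4 called genes in each direction of each nuclear list, members sharing values, and the 5 members most like the widest-ranging one. Exceptions named after their values were seen are the loci called without 2 h replicate 2, ATMG00880 and the further tRNA values. Gene names came from a RefSeq table (assembly TAIR10.1). Sequences and coordinates of the members are not used here.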

Additional observations from a re-analysis of the deposited data

How the results depend on the processing

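The 72 h result was the steadiest: the 68 members called and the 65 that fell stayed within 1.5 times under every alternative, and none of 168 named differences changed sign under any setting run. Counts at other times moved with several settings. At 2 h the count of 0 became 1 with a variance trend, with repeated quantile normalization and with the replicate number as a block, 2 without the dimmest 25% of loci, and 0 to 4 with 1 array left out. At 12 h the 11 called became 40 with array weights, 24 with a variance trend, 22 with only the 6 arrays compared, 1 at adjusted p under 0.01, and 1 to 30 with 1 array left out. At 24 h the 43 called became 73 with weights and 66 with 6 arrays, and 35 to 67 with 1 array left out; the 40 falls became 63 with weights. For 12 h against 2 h the 7 became 11 with a trend, 0 with 6 arrays, 0 at 0.01, and 0 to 17 with 1 array left out. For 24 h against 12 h the 20 became 62 with weights, 44 with 6 arrays, 5 at 0.01, and 5 to 45 with 1 array left out. For 72 h against 24 h the 13 became 65 with weights, 49 with 6 arrays, 20 with quantile normalization, 5 at 0.01, and 5 to 58 with 1 array left out. The F test's 67 became 106 with weights and 59 to 101 with 1 array left out. The median difference at 2 h was 0.10 with arrays centred on their medians, and that at 24 h lay between -0.32 and -0.22 with 1 array left out. The cause of these changes was not tested. The replicate block ended 13 of the 168 named calls and left the other counts within 1.5 times. The number of arrays limits small differences near the threshold.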

Other observations

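The 72 h differences of the 80 other loci ranged from -2.39 to 0.48. Those of the 38 listed members ranged from -1.74 to 0.39. Between arrays of the same time, leaving out 2 h, the median SD was 0.08 for listed members, 0.17 for tRNAs and 0.12 for other loci, against 0.14 for all loci. At 2 h these medians were 0.11, 0.32 and 0.36, against 0.43 for all loci. ATMG00750, which shares its values with a nuclear locus, reached its highest level at 24 h, at 7.17, 7.50 and 7.29, against 6.58, 6.13 and 6.67 at 0 h, a difference of 0.86 that was not called (adjusted p = 0.0847) but was called without 2 h replicate 2 (adjusted p = 0.000106). The plastid loci had 20 falls and 0 rises among 132 at 12 h against 0 h, against 11.7% of all loci fallen and 13.3% risen. At 72 h they had 33 rises and 13 falls, against 18.4% risen and 20.2% fallen. Their median difference from 0 h was -0.27 at 12 h and 0.18 at 72 h. In that order it was -0.18 and 0.11 for the listed mitochondrial members, -0.42 and -1.45 for tRNAs, and -0.16 and -0.97 for other loci. The difference between the organelles was not tested.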
